A study of Homo sapiens with 31 samples.

Results

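The XIAP hairpin driven by the SFFV promoter, which the study treats as its strong knockdown, was examined in NALM-6 cells, an established human B-cell precursor acute lymphoblastic leukemia line, against its own promoter-matched control. The 10 of the 31 samples used were chosen by their labels: 6 samples with SFFV/sh-XIAP, 3 taken 10 days and 3 taken 13 days after transduction, and 4 samples with SFFV/sh-CTRL, 2 from each of these days. Both groups carried a lentiviral vector in which the viral SFFV promoter drives a fluorescent protein followed by the hairpin, so that promoter, line and days were shared and the hairpin differed. According to the methods of the study, the control plasmid was used in mTagBFP-positive and the XIAP hairpin in eGFP-positive cells, hence hairpin and marker color cannot be told apart. The sample labels place the cells in vitro, whereas the general text of the deposition has them recovered from mouse bone marrow. No label says whether the replicates were separate transductions, so p-values measure the spread between these samples only. According to its methods, the study left out outlying samples after a principal component analysis, without naming them. The labels hold no replicate 3 of SFFV/sh-CTRL at either day, and whether it was left out for this reason is not stated. Such a choice would narrow the spread within the control group, on which p-values and the separation of groups depend.

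XIAP is an inhibitor of apoptosis protein. It binds initiator and executioner caspases through its BIR domains, and its RING domain is a ubiquitin ligase through which it also takes part in NF-kB signaling. XIAP is known mainly for acting on proteins after they are made, and in leukemia cells it raises the threshold for drug-induced cell death. The comparison asks which transcripts differ once its hairpin is expressed from a strong promoter.

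RNA was measured by prime-seq, which counts unique molecular identifiers (UMIs) at the 3′ end of transcripts, and levels are given as TMM-scaled CPM, the UMIs of a gene scaled to a common library size. The libraries held 312852 to 1148669 UMIs with SFFV/sh-XIAP (median 708866.5) and 351081 to 520334 with SFFV/sh-CTRL (median 464457). The log2 total was 19.39 ± 0.692 (SD, n = 6) and 18.76 ± 0.247 (SD, n = 4) (exact permutation test within days, two-sided, p = 0.16). Except for SFFV/sh-XIAP day 10 replicate 2, every sh-XIAP library was deeper than every sh-CTRL library. Depth and hairpin are thus hard to tell apart in these libraries. Genes for ribosomal proteins took 12.5% to 14.2% of the UMIs with sh-XIAP and 13.1% to 14.2% with sh-CTRL. This share was lower in deeper libraries (Spearman's rho −0.818 over the 10 libraries, given as a description). All 15 markers fixed for the cell type, among them PAX5, VPREB1, IGLL1 and RAG1, exceeded 20 CPM in every library. Of 31 markers of T and NK, myeloid, erythroid and stromal cells in the table, 1 exceeded 20 CPM on average, PDGFRA, and 10 had no UMI in any of the 10 libraries.

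At both days together, 16 of 17683 genes tested passed an adjusted p of 0.25, the threshold of the study (0.0905%, from a limma-voom fit of construct plus day, adjusted by Benjamini-Hochberg), 3 higher and 13 lower with sh-XIAP. Of the 11558 protein-coding genes, 6 passed (0.0519%). ACTB and HSPA8 rose, and RPL34, RPL36A, KCTD17 and SAG fell, of which RPL34 turned direction in 3 of 28 alternatives. An unadjusted p under 0.05 was reached by 982 genes (5.55%). The edgeR quasi-likelihood test called 49 genes (0.277%), 15 of them protein coding, which included RPL36A and KCTD17 but none of the other 4. DESeq2 called 0 genes, with 419 at an unadjusted p under 0.05. With depth as a covariate (the log2 of a library's UMIs), limma-voom called 0 protein-coding genes, and 541 reached an unadjusted p under 0.05. Every one of the 10 libraries moved the 6 by 1.5 times or more when left out: it was 1 without the first SFFV/sh-CTRL replicate of day 10 or the second of day 13, 2 to 4 without 6 others, 15 without SFFV/sh-XIAP day 13 replicate 3 and 19 without SFFV/sh-XIAP day 10 replicate 2, the library with the fewest UMIs.

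**Figure D1:**
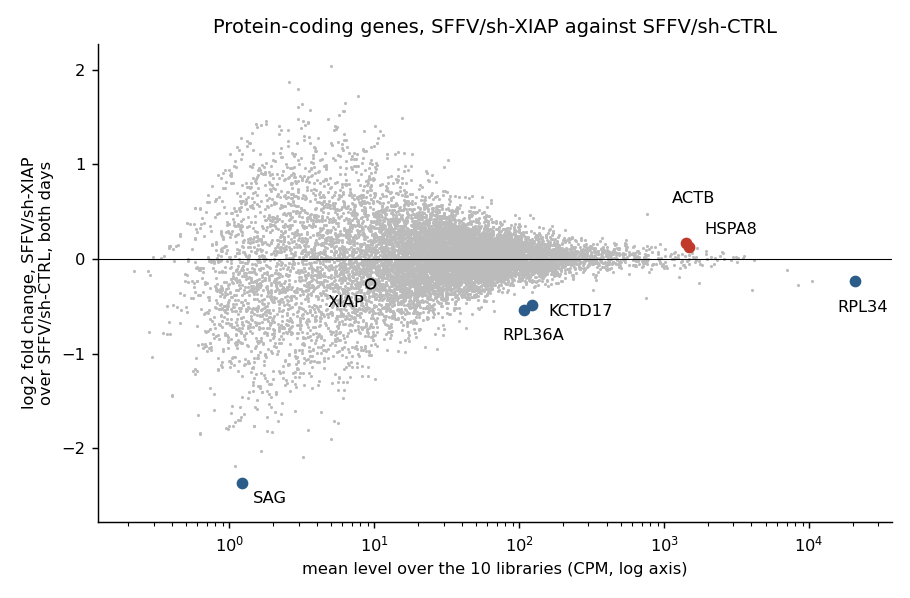
Each point is 1 of 11558 protein-coding genes, at its mean level over the 10 SFFV libraries (CPM, log axis) and its log2 fold change with SFFV/sh-XIAP over both days. The 6 genes that passed are filled and named, XIAP is the open circle, and the cloud widens toward low levels, where few UMIs stand behind a value.

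The targeted gene itself gave few UMIs. XIAP (ENSG00000101966, plus strand of chromosome X from 123859724 to 123913979 in GENCODE 29 on GRCh38) had 8, 2 and 9 UMIs at day 10 and 9, 5 and 6 at day 13 with sh-XIAP, and 2 and 8 at day 10 and 3 and 6 at day 13 with sh-CTRL. The groups overlapped at both days. Levels were 8.84 ± 2.98 CPM (SD, n = 6) and 10.3 ± 4.70 CPM (SD, n = 4), a log2 fold change of −0.26 (standard error, SE, 0.395, limma adjusted p = 0.976). The pooled UMIs, 39 against 19, gave a ratio of 0.823 with a 95% exact interval of 0.464 to 1.51 for counting error alone. The interval holds a ratio of 1, and a reduction of the transcript below 0.464 of control lies outside it. A strong reduction was therefore not seen in the transcript of these libraries. The name of the construct rests on protein, for which the study reported a strong knockdown with this promoter in NALM-6 cells by western blot. Protein was not measured in these files, so transcript and protein cannot be compared here. BIRC2, which encodes cIAP1, was at 31.9 ± 6.39 and 40.0 ± 9.33 CPM (log2 fold change −0.37, limma adjusted p = 0.922). BIRC3, which encodes cIAP2, had 4 and 1 UMIs and was not tested.

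HSPA8 (ENSG00000109971, minus strand of chromosome 11 from 123057489 to 123063230) encodes the constitutive HSC70 chaperone, which folds new proteins and uncoats clathrin vesicles. At day 10 it was at 1553, 1487 and 1511 CPM with sh-XIAP and at 1340 and 1408 CPM with sh-CTRL. At day 13 it was at 1561, 1499 and 1513 CPM and at 1444 and 1394 CPM. Every library with sh-XIAP lay above every library with sh-CTRL, as it did in one direction or the other for 1.23% of all genes and 1.23% of protein-coding genes. The means were 1521 ± 29.8 and 1396 ± 43.3 CPM, a log2 fold change of 0.13 (SE 0.0295, limma adjusted p = 0.161). The effect was 0.14 at day 10 and 0.12 at day 13. It was 0.13 with the depth covariate (limma adjusted p = 0.678) and 0.12 after thinning all libraries to 312852 UMIs, so its size moved little with depth while its call was lost. In edgeR its adjusted p was 0.906. Its call was lost without SFFV/sh-CTRL day 10 replicate 1 or SFFV/sh-CTRL day 13 replicate 2 (adjusted p = 0.360 and 0.376 in limma).

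ACTB (ENSG00000075624, minus strand of chromosome 7 from 5527147 to 5563784) encodes cytoplasmic beta-actin. It was at 1442, 1451 and 1569 CPM at day 10 and 1489, 1471 and 1439 CPM at day 13 with sh-XIAP. With sh-CTRL it was at 1340 and 1327 CPM and at 1307 and 1377 CPM. The groups again did not overlap, with means of 1477 ± 48.9 and 1338 ± 29.7 CPM and a log2 fold change of 0.17 (SE 0.0348, limma adjusted p = 0.102). The library with the most UMIs held the highest value, and with the depth covariate the fold change was 0.09 (limma adjusted p = 0.993). Its call held without each of the 10 libraries in turn, with limma adjusted p from 0.00793 to 0.219, but not in edgeR (adjusted p = 0.834).

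KCTD17 (ENSG00000100379, plus strand of chromosome 22 from 37051736 to 37063390) encodes a substrate adaptor of CUL3 ubiquitin ligases that is known for its part in the formation of primary cilia. It was at 84.3, 98.7 and 112 CPM at day 10 and 94.5, 120 and 113 CPM at day 13 with sh-XIAP. With sh-CTRL it was at 171 and 121 CPM and at 158 and 149 CPM. The highest library with sh-XIAP, at 119.7 CPM, was just below the lowest with sh-CTRL, at 120.5 CPM. The log2 fold change was −0.49 (SE 0.118, limma adjusted p = 0.214, edgeR adjusted p = 0.0262), with −0.48 at day 10 and −0.52 at day 13. It was −0.53 with the depth covariate (limma adjusted p = 0.578) and −0.39 after thinning. The call held without SFFV/sh-CTRL day 10 replicate 2, SFFV/sh-XIAP day 10 replicate 2 or SFFV/sh-XIAP day 13 replicate 3, and was lost without any other of the 10 libraries (adjusted p from 0.419 to 0.758 from limma).

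The EF1a samples of the same days, in which the cellular EF1a promoter drives the same hairpins, give values to set beside. Over the 21 genes that passed or had the smallest p at 20 CPM or more, both SFFV means lay outside the EF1a means, on opposite sides, for 13. The SFFV/sh-XIAP mean alone lay outside for 4 (HSPA8, KCTD17, HSP90B1 and SLC25A33) and the SFFV/sh-CTRL mean alone for 4 (SAG, THOP1, AKAP1 and RPL37). These genes were chosen by the difference between the SFFV groups, which by itself favors means on opposite sides. The share over all genes tested was not counted, so the order of means is a description only. KCTD17 was at 151 ± 14.8 CPM (SD, n = 6) with EF1a/sh-CTRL and 139 ± 8.20 CPM (SD, n = 5) with EF1a/sh-XIAP, beside 149.6 CPM with SFFV/sh-CTRL and 104 CPM with SFFV/sh-XIAP. HSPA8 was at 1366 ± 36.9 and 1400 ± 58.7 CPM, and ACTB at 1383 ± 39.5 and 1354 ± 74.2 CPM, in the same order. SFFV/sh-XIAP thus had the highest mean of the 4 constructs for HSPA8 and ACTB and the lowest for KCTD17. In other genes SFFV/sh-CTRL stood farther off. CDK16, a kinase of the cyclin-dependent family, was at 19.9 ± 9.26 CPM with SFFV/sh-CTRL, 40.3 ± 4.86 CPM with SFFV/sh-XIAP, 35.8 ± 10.6 CPM with EF1a/sh-CTRL and 35.8 ± 7.32 CPM with EF1a/sh-XIAP. THOP1 was at 47.2, 74.2, 69.7 and 76.5 CPM in this order, and RPL34 at 22540, 19760, 19870 and 20790 CPM. AKAP1 was at 33.9, 55.5, 43.6 and 60.3 CPM in the same order, where both sh-XIAP means lay above both sh-CTRL means. Differences between promoters were not tested here.

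RPL36A (ENSG00000241343, plus strand of chromosome X from 101390824 to 101396154), a protein of the large ribosomal subunit, was at 91.5, 92.1 and 90.2 CPM at day 10 and 94.5, 94.8 and 83.8 CPM at day 13 with sh-XIAP. With sh-CTRL it was at 119 and 113 CPM and at 167 and 138 CPM. The groups did not overlap, and the log2 fold change was −0.54 (SE 0.122, limma adjusted p = 0.176, edgeR adjusted p = 0.021), with −0.35 at day 10 and −0.71 at day 13. Near-identical copies can take reads of this gene, and 19 pseudogenes named for it held 66.4% of the UMIs of the family. The family sum was 299 ± 19.9 CPM with sh-XIAP and 319 ± 28.03 CPM with sh-CTRL (exact permutation p = 0.23), and with pseudogene UMIs added to their parents the log2 fold change was −0.07 (limma adjusted p = 0.947). The call held without SFFV/sh-XIAP day 10 replicate 2 or SFFV/sh-XIAP day 13 replicate 3 and was lost without any other library (limma adjusted p from 0.282 to 0.742).

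RPL34, the gene with the most UMIs, ranged from 15810 to 28130 CPM with sh-XIAP and from 19010 to 27410 CPM with sh-CTRL. The ranges overlapped widely (exact permutation p = 0.34), yet its adjusted p was 2.77e-12 in limma-voom at a log2 fold change of −0.23. At day 10 the mean of RPL34 was not lower, at 20580 CPM with sh-XIAP and 19890 CPM with sh-CTRL. The variance trend that voom fitted fell below 0 at this gene alone, which gives its libraries a very large weight. With the trend held constant above the level that 18 genes exceed, an alternative chosen after the data were seen, the adjusted p of RPL34 was 0.712, and with the depth covariate its log2 fold change was −0.04. It was 0.23 after thinning, 0.083 without a filter on low counts and 0.037 with the depth covariate and held trend together. Pseudogenes of RPL34 (16) took 53.3% of the family's UMIs, and the family sum was 42460 ± 13800 and 50730 ± 10590 CPM (exact permutation p = 0.30). Its highest level in each group stood in the library with the fewest UMIs. SAG, the arrestin of photoreceptors, had 0 UMIs in all sh-XIAP libraries and 1, 1, 2 and 1 in those with sh-CTRL. The pooled UMIs of SAG, 0 against 5, gave a ratio with a 95% exact interval of 0 to 0.437 for counting error alone. Against a floor of 3 UMIs over the group SAG was 4.16-fold lower with sh-XIAP. That value takes the 5 control UMIs as free of error, so it is not a lower bound. SAG fell under the filter on low counts without any 1 control library, and its call was lost without any of 4 sh-XIAP libraries (limma adjusted p from 0.374 to 0.574), all but day 10 replicate 2 and day 13 replicate 3.

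At each day alone, with 3 libraries against 2, little passed. At day 10 limma-voom called 0 genes (0.0%) and 851 had an unadjusted p under 0.05, while edgeR called 2 genes, 1 of them protein coding, and DESeq2 called 0. At day 13, 17 genes passed (0.0961%), of which 7 were protein coding (0.0606%). Among them, MT-CO3 and GJA3 rose, and RPL36A, RPL34, YPEL2 and SPICE1 fell. MT-CO3, a subunit of cytochrome c oxidase encoded in the mitochondrial genome, had a log2 fold change of 0.18 at day 13 (SE 0.0424, limma adjusted p = 0.223) and of 0.0051 at day 10. GJA3, YPEL2 and SPICE1, named after their values were seen, rested on 28, 8 and 13 UMIs with sh-XIAP at day 13 and 0, 13 and 18 with sh-CTRL. Without 1 library the 7 became 0 (SFFV/sh-CTRL day 10 replicate 2, SFFV/sh-CTRL day 13 replicate 2 or SFFV/sh-XIAP day 13 replicate 2), 1 (SFFV/sh-CTRL day 10 replicate 1, SFFV/sh-CTRL day 13 replicate 1 or SFFV/sh-XIAP day 13 replicate 1), 3 (SFFV/sh-XIAP day 10 replicate 1) or 17 (SFFV/sh-XIAP day 13 replicate 3).

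The difference of the day 13 and the day 10 effect passed for 0 genes (0.0%) in limma-voom, with 870 at an unadjusted p under 0.05, whereas edgeR called 11 and DESeq2 0. The smallest p in each direction at 20 CPM or more belonged to KIAA0040, with log2 fold changes of −0.53 at day 10 and 1.45 at day 13 (limma adjusted p = 0.969 for the difference), and to MRPS10, a mitochondrial ribosomal protein, with 0.91 and −0.63 (limma adjusted p = 0.969). Among the 6742 protein-coding genes at 20 CPM or more, the effects had the same sign at both days for 3427 (50.8%), and Pearson's r between the days was −0.00435 across genes, which are no independent replicates. The SD of the effects, 0.273 at day 10 and 0.287 at day 13, was close to the median standard errors of 0.260 and 0.267. Precision followed level: the median standard error over both days was 0.62 for 1655 protein-coding genes at 1 to 5 CPM, 0.208 for 5191 genes at 20 to 100 CPM and 0.0482 for 179 genes at 500 CPM or more.

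Genes with the smallest p at 20 CPM or more and the same sign at both days were named whether or not they passed. Not past the threshold but with higher levels at both days were AHSA1, an activator of the HSP90 ATPase (138.5 ± 11.3 against 103.5 ± 12.4 CPM, log2 fold change 0.43, limma adjusted p = 0.297), EIF3J, a translation initiation factor (133 ± 10.3 against 98.3 ± 11.7 CPM, 0.46, limma adjusted p = 0.387), the peptidase THOP1 (0.63), the mitochondrial anchor protein AKAP1 (0.66), the mitochondrial pyrimidine carrier SLC25A33 (0.97), CDK16 (1.04), HSP90AB1 (0.16) and HSP90B1 (0.20). Each of these 8 genes kept its sign and an unadjusted p under 0.05 with the depth covariate, and edgeR called AHSA1, EIF3J, THOP1, SLC25A33 and CDK16. Other genes did not pass it and had fitted effects below 0 at both days. SCARB2, a lysosomal membrane receptor, was at 20.2 ± 3.01 against 37.6 ± 4.54 CPM (log2 fold change −0.95, limma adjusted p = 0.292). EMC2, part of the insertase of the endoplasmic reticulum (−0.93), and IKBKB, the IKK-beta kinase of NF-kB signaling (−0.73), were further ones. So were the clathrin adaptor PICALM (−0.80), the histone demethylase family member JMJD1C (−0.54), and RPL29 and RPL37 (−0.28 and −0.33). Of these, edgeR called SCARB2, EMC2, IKBKB and JMJD1C. RPL29 and RPL37 had log2 fold changes of −0.10 and −0.04 with the depth covariate, and of −0.15 and −0.23 with the voom trend held. The mean level of RPL37 at day 10 was not lower, at 3871 CPM with sh-XIAP and 3788 CPM with sh-CTRL.

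Gene lists were described by their counts and medians. For scale, all genes tested had a median log2 fold change of −0.02, and protein-coding genes at 20 CPM or more one of 0.015, with 2.86% of them at an unadjusted p under 0.05 and higher and 1.85% lower. Among the 179 protein-coding genes at 500 CPM or more, where errors are small, these shares were 12.3% and 6.7%. Of the 31 lists with at least 10 members tested, 20 had a median above 0, and 12 with the depth covariate.

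Of 31 members tested from the list of cytosolic and mitochondrial heat shock proteins, 20 were higher and 11 lower with a median of 0.07, and 1, HSPA8, passed. A further 5 had an unadjusted p under 0.05 and were higher: AHSA1, HSP90AB1 (970 ± 58.7 against 886 ± 49.1 CPM), the mitochondrial chaperonin HSPD1 (883 against 818 CPM), the immunophilin FKBP4 (24.6 against 14.4 CPM) and 1 of 2 identifiers with the symbol HSPA14. None was lower at that level. With the depth covariate the median was 0.03, with 5 higher and 1 lower at that level. Stress-inducible HSPA1A was at 1.49 and 3.21 CPM. The summed level of the list was 7954 to 8487 CPM with sh-XIAP and 7557 to 7939 CPM with sh-CTRL, and without HSPA8 it was 6467 to 6926 and 6163 to 6517 CPM, ranges that overlap.

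Many promoters of this class hold heat shock elements, the sites of the factor HSF1. The core GAANNTTC, which reads the same on both strands, was looked for in 300 bases around each RefSeq start site on GRCh38.p14. With the first listed start site of each gene, it was in 8 of 29 genes of the list (27.6%), 2 of 12 of the TRiC/CCT list (16.7%), 0 of 19 endoplasmic reticulum chaperones, 0 of 35 actin genes and 416 of the 9237 protein-coding genes tested that had a window (4.50%). With any start site, a count chosen after the windows were seen, it was in 12 (41.4%), 3, 1 (5.26%), 0 and 595 (6.44%) of them, and in 2241 of all 27305 genes (8.21%). The matches of HSPA8, which rose, of HSP90AB1, and of HSPA1A, which was near 0, are shown with the core in capitals, each read 5′ to 3′ on the strand of the gene. They describe the sequence only. DNAJB1 and HSP90AA1 also had matches, at log2 fold changes of −0.06 and 0.05 (limma adjusted p = 0.986 and 0.938). A match was present for HSPD1 as well, which is named above among the higher members. AHSA1, HSPA5 and HSP90B1 had no match in their windows.
HSPA8, chr11:123062348-123062377, minus strand: ggggcgagcttGAAAGTTCcagaacgctgc
HSPA8, chr11:123062168-123062197, minus strand: ggccccttctgGAAGGTTCtaagatagggt
HSPA1A, chr6:31815426-31815455, plus strand: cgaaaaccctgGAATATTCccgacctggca
HSP90AB1, chr6:44247772-44247801, plus strand: agcaggttctgGAAGATTCatgggctcctt
HSP90AB1, chr6:44247825-44247854, plus strand: agattgttctgGAAGCTTCtggattctggc

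Among 20 endoplasmic reticulum chaperones 13 were higher and 7 lower (median 0.03, and −0.03 with the depth covariate), and 0 passed. HSPA5, the lumenal HSP70 known as BiP, was at 368, 428 and 402 CPM at day 10 and 376, 391.5 and 403 CPM at day 13 with sh-XIAP, against 362 and 360 CPM and 340 and 289 CPM, so that the groups did not overlap (log2 fold change 0.22, limma adjusted p = 0.602). HSP90B1 had 0.34 at day 10 and 0.06 at day 13. The 14 subunits of the TRiC/CCT chaperonin and its prefoldin partners were evenly divided, 7 higher and 7 lower (median 0.01), and 33 ATF4 and CHOP stress response genes had a median of 0.02 with 1 at an unadjusted p under 0.05.

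More members were higher than lower in lists of many kinds. These included translation factors (29 of 37 higher), the proteasome (31 of 41), splicing regulators (22 of 32) and actin and actin-binding genes (26 of 38). Lists of oxidative metabolism and growth were others. For scale, 53.9% of protein-coding genes at 20 CPM or more were higher. With the depth covariate the counts were 20 of 37 for translation factors and 20 of 41 for the proteasome. They were 12 of 32 for splicing regulators and 24 of 38 for actin and actin-binding genes, beside 3380 of 6742 protein-coding genes at 20 CPM or more. Of 13 protein-coding genes of the mitochondrial genome 11 were higher (median 0.10, and 0.09 with the depth covariate), 5 of them at an unadjusted p under 0.05. MT-ND2, a complex I subunit, was at 560.1 ± 21.98 against 498 ± 15.0 CPM and did not overlap (log2 fold change 0.17, limma adjusted p = 0.720), whereas MT-CO2 was at 6917 and 7077 CPM. Of 71 nuclear-encoded respiratory chain genes 48 were higher and 23 lower (median 0.07), 6 higher and 0 lower at an unadjusted p under 0.05, among them COX6B1 (0.34) and UQCRQ (0.20). Their summed level was 11500 to 11870 CPM with sh-XIAP and 10970 to 11360 CPM with sh-CTRL. The summed level separated the groups in 4 of the 31 lists, each time higher with sh-XIAP, the others being heat shock proteins, antioxidants, and genes of G2 and mitosis. Among single genes the groups did not overlap for 1.23%, and the share for sums of other genes was not counted. The sums were not adjusted for depth. With the depth covariate the medians were 0.05 for the respiratory chain, 0.03 for heat shock proteins, 0.026 for antioxidants and 0.026 for G2 and mitosis. Of 29 MYC and nucleolar growth genes 20 were higher (median 0.07, and 0.02 with the depth covariate), 6 of them at an unadjusted p under 0.05 such as ODC1 (0.17) and NPM1 (0.10), while MYC itself was at 389 and 422.5 CPM.

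Of 48 ribosomal protein genes of the large subunit 30 were lower (median −0.03), 9 of them at an unadjusted p under 0.05, and RPL34 and RPL36A passed. Without 1 library at a time the median ranged from −0.02 to 0.01, so its sign was not stable. With the depth covariate the median was −0.04 and 14 of the 48 were higher. At an unadjusted p under 0.05, 7 were then lower and 0 higher. Of 33 genes of the small subunit 23 were lower (median −0.01, and −0.02 with the depth covariate) and 0 passed. RPL22 (753.5 against 837 CPM) and RPL9 (1021 against 1089 CPM) were lower in every sh-XIAP library.

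Genes of the cell death machinery gave no call. For strong knockdown the study reported gene ontology terms on apoptosis at borderline significance, and more cleavage of PARP, which is a protein measure. Neither was examined here. Of 13 IAP genes and antagonists 6 were higher and 7 lower (median −0.05), and 0 had an unadjusted p under 0.05. Of 18 caspases and apoptosome genes 9 were higher and 9 lower (median 0.03), and 0 had an unadjusted p under 0.05. The initiator CASP9, a direct target of XIAP, was at 8.39 against 12.2 CPM. DFFB was at 10.75 against 5.6 CPM without overlap, and ENDOG at 28.5 against 35.7 CPM. In the BCL2 family 12 of 19 were higher (median 0.09), and 0 had an unadjusted p under 0.05. Its BH3-only members BIK, at 28.7 ± 8.06 against 16.95 ± 2.52 CPM, and BCL2L11, at 32.7 against 24.1 CPM, were higher in every sh-XIAP library (log2 fold changes 0.57 and 0.45, adjusted p = 0.899 and 0.902 from limma). For scale, the groups did not overlap for 1.23% of all genes tested. The decoy death receptor TNFRSF10D (−1.22) had the only unadjusted p under 0.05 among 19 genes of the death receptor and RIPK1 complex (median −0.12).

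Signaling lists were mixed. NF-kB subunits and targets had 10 higher and 9 lower, with a median of 0.10 that was −0.16 at day 10 and 0.08 at day 13. NFKBIB, the inhibitor IkB-beta, was at 45.6 ± 6.05 against 27.5 ± 5.44 CPM without overlap (0.66, limma adjusted p = 0.656). The p53 targets were 14 higher and 14 lower, and the interferon-stimulated genes 17 higher and 18 lower (median −0.08), with HERC5 at 64.2 against 50.4 CPM, IRF1 at 40.1 against 52.8 CPM and DDX58 at 6.87 against 13.4 CPM at an unadjusted p under 0.05. Among 34 genes of pre-B-cell identity 20 were higher (median 0.05, and −0.01 with the depth covariate), and CD9 was lower in every sh-XIAP library (542 ± 31.9 against 612 ± 22.2 CPM, −0.16, limma adjusted p = 0.609). In HLA class I presentation 11 of 14 were lower (median −0.06), among them B2M (−0.06), and in HLA class II presentation 6 of 14. Summed markers of other cell types ranged, with sh-XIAP and sh-CTRL, over 21.5 to 36.2 and 29.2 to 35.1 CPM for T and NK cells, 11.2 to 46.1 and 8.99 to 23.4 CPM for myeloid cells, 0 to 7.17 and 0 to 2.25 CPM for erythroid cells and platelets, and 156 to 193 and 189 to 225 CPM for stromal cells, where PDGFRA alone had means of 173 and 203.5 CPM. Their part in any list was not tested.

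Actin and actin-binding genes had a median of 0.06, with ACTB passing and PFN1, the actin monomer binder profilin, at 0.13. Medians were 0.04 for the proteasome, for translation factors and for G2 and mitosis genes, 0.03 for splicing regulators, 0.01 for S-phase genes, −0.01 for small RNA and hairpin processing, −0.03 for cholesterol synthesis and −0.05 for glycolysis, and 0 of their members passed. Antioxidants and thioredoxins (18 of 29 higher, median 0.04), copper handling (10 of 15 higher, median 0.02) and tubulins (7 of 15 higher, median −0.00094) likewise had 0 called. AGO2, which carries the guide strand of a processed hairpin, was at 44.5 against 38.4 CPM.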

How the data were processed

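UMI counts per gene were deposited by the authors as 1 table of raw counts for 30667 gene identifiers, not normalised; the submitters' processing notes name STAR 2.6.0a and human and mouse builds (GRCh38, GRCm38). 29928 identifiers matched GENCODE 29. Groups came from the labels. Genes above 1 CPM in at least 1/3 of the 21 late samples of all constructs were kept, TMM-scaled (edgeR 4.0.16) and fitted with limma-voom (limma 3.58.1, R 4.3.3), construct and day as terms for both days and construct by day for each day and their difference, with 1 spread for all 21 samples. The threshold was a Benjamini-Hochberg adjusted p of 0.25. Exact permutations within days on log2 CPM had 100 assignments and a smallest two-sided p of 0.01. Alternatives included edgeR, DESeq2 1.42.0, the log2 total of UMIs as covariate, thinning, other filters and scalings, and leaving out libraries. The fits were tested on simulated data. The compared sets and gene lists were chosen with earlier results of these data known, so lists carry no test. Named genes were XIAP, BIRC2 and BIRC3, called protein-coding genes, the 10 of smallest p in each direction at 20 CPM or more with equal sign at both days, the 2 of smallest p in each list, and the 3 of smallest p in each direction per day and for the difference; other list members were named after their values were seen. Depth ranged from 312852 to 1148669 UMIs, and intervals cover counting error only. Over 8 pairs of replicates a chi-square per gene was 1.1 to 2.45, and no pair was merged into 1 sample. These values cannot tell separate cultures from repeated libraries of 1 culture. Deviations of same-numbered samples of 1 day had a mean correlation of −0.00125 over 28 pairs, so numbers were not taken to pair samples. Some genes are not reported here by name.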

Additional observations from a re-analysis of the deposited data

Results flagged for a closer look

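In 5 of 166 groups of libraries 1 library lay apart from the others by Dixon's criterion, which chance gives in about 1 of 20 groups. HERC5, an interferon-induced ligase, was at 52.41 CPM in SFFV/sh-CTRL day 13 replicate 2, above the other 3 control libraries. The glycolytic enzyme GAPDH was at 2260.0 CPM in SFFV/sh-XIAP day 10 replicate 2, below the other 5 of its group. The tetraspanin CD9 was at 645.2 CPM in SFFV/sh-CTRL day 10 replicate 1, above its group. CD38 was at 62.89 CPM in SFFV/sh-CTRL day 13 replicate 2 and the hypusine enzyme DHPS at 23.44 CPM in SFFV/sh-CTRL day 13 replicate 1, both below their group.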

How the results depend on the processing

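The counts of called genes depended on the processing. At both days together, the 6 protein-coding and 16 genes in all became 15 and 49 with edgeR, 0 and 0 with DESeq2, 3 and 5 without a filter, 0 and 1 with the depth covariate, 0 and 0 after thinning, 22 and 51 with only the 10 SFFV samples, 0 and 1 without a day term, and 3 and 3 with protein-coding genes only. Protein-coding calls were 10 with filterByExpr and 10 with pseudogenes added to parents, and all calls were 10 without TMM, 28 with DESeq2 size factors and 27 with the culture as a random block. With the voom trend held, chosen after seeing the data, all calls were 25, and with the depth covariate as well 0 and 3. At thresholds of 0.05 and 0.1, 1 protein-coding gene and 2 genes passed. With the replicate number as a block, 2 and 4 genes were called, and 3 protein-coding genes at day 13; the numbers do not pair the samples. Leaving out 1 library gave 1 to 19 and 2 to 48. At day 10 the 0 became 1 with edgeR, robust moderation, thinning or pseudogenes added, 8 without a filter and 2 with the depth covariate and held trend, and 0 to 2 without 1 library. At day 13 the 7 became 15 with edgeR, 0 with DESeq2, 20 with limma-trend, 0 without TMM, 17 without a filter, 4 with filterByExpr, 0 with the depth covariate, 12 with the SFFV samples only, 4 with protein-coding genes only, 13 with the held trend, 2 with both, 0 at 0.05 and 0.1, and 0 to 17 without 1 library. For the difference of days the 0 became 3 with edgeR and 1 with pseudogenes added. Signs turned for RPL34 (0.083 without a filter, 0.23 thinned, 0.037 with depth covariate and held trend), RPL29 (0.0088 with both, and at day 10 0.034 without a filter and 0.0012 with both), RPL37 (0.0104 with both), B2M (−0.0511 to 0.0019 when other libraries were left out, above 0 without SFFV/sh-XIAP day 10 replicate 3), NKG7 (−0.6962 to 0.00059, above 0 without SFFV/sh-CTRL day 13 replicate 2), AIF1 (0.12 thinned) and ITGA2B (0.12 with DESeq2, 0.053 with limma-trend); the cause was not tested. XIAP passed in no alternative, with log2 fold changes from −0.57 to −0.01. Of the other values of named genes, 2558 kept direction and side of the threshold, 129 lost and 79 gained it. Of the medians of lists, 412 moved by less than 1 SD between replicates and 42 by more.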
